A study of Mus musculus with 22 samples.

Results

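Imprinted genes, 10 of the 47311 genes counted in the series, were followed through 22 RNA sequencing libraries of mouse blood stem and precursor cells with and without ARID1A. The members were Dlk1, Meg3, Rian and Mirg, which lie together on chromosome 12, and H19, Igf2r, Grb10, Plagl1, Peg3 and Gnas, which lie elsewhere. They were chosen with earlier results of these libraries in view, and the set was chosen by the Meg3 count, through its difference between KO and WT cells in the CMP population but not in the GMP population. Those Meg3 values, and every comparison that uses them, are therefore described here and not tested. For every gene, the estimated counts and the TPM (a level corrected for transcript length and library total) of all its transcripts were summed.

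KO mice were Arid1a f/f;Mx1-Cre+ and WT mice were Arid1a f/f;Mx1-Cre- sex-matched littermates, on a background crossed for 5 generations to C57BL/6. Both genotypes carried the floxed exon 9 of Arid1a and both received poly(I:C), in 5 doses at 8 to 14 weeks of age, which switches on the interferon-responsive Mx1-Cre. The Mx1 promoter is not restricted to the sorted cells. Cells were sorted from bone marrow 4 weeks later. Common myeloid progenitors (CMP), granulocyte-macrophage progenitors (GMP) and megakaryocyte-erythroid progenitors (MEP) came from the same 3 WT and 3 KO mice, giving 18 libraries, and long-term hematopoietic stem cells (LT-HSC) came from 2 WT and 2 KO other mice, giving 4 libraries. LT-HSC libraries were made with a kit for very little RNA and the precursor libraries with a poly-A selection kit, so LT-HSC levels are set beside precursor levels and not compared by a test.

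Imprinted genes are expressed mainly from the copy inherited from 1 parent, and many of them act on growth or on the resting state of stem cells. Along the Dlk1-Dio3 cluster, the protein-coding gene Dlk1 is expressed from the paternal copy, whereas the long non-coding RNAs Meg3 (also called Gtl2), Rian and Mirg are expressed in one direction from the maternal copy. Rian carries many small nucleolar RNAs and Mirg carries many microRNAs. These libraries do not separate the parental copies, so each value below is the sum over both.

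Library totals ran from 40804031 to 65930737 estimated counts. In KO cells Arid1a itself was lower, with mean TPM of 74.4 ± 5.27 against 80.7 ± 3.30 in CMP (SD, n = 3 each), 44.8 ± 1.83 against 65.5 ± 11.2 in GMP, 48.2 ± 3.37 against 52.8 ± 1.09 in MEP and 10.8 ± 0.171 against 26.8 ± 4.37 in LT-HSC (n = 2 each). The sum over a gene also counts reads outside the deleted exon, so this checks the labels only in part. GMP, MEP and LT-HSC each carried the marker checked for it, and no such marker was checked for CMP. Elane was at 6237 TPM or more in every GMP library and Klf1 at 313 TPM or more in every MEP library. Hlf was at 74.7 TPM or more in every LT-HSC library. LT-HSC libraries also held markers of other lineages. Klf1 was at 153.2 to 359.3 TPM in WT and 178.9 to 268.5 in KO LT-HSC. Elane was at 0.7995 to 378.2 TPM in WT and 215.7 to 361.0 in KO LT-HSC. Erythroid markers summed to 5074 to 6714 TPM in WT and 4655 to 5135 in KO LT-HSC. In MEP they summed to 7288 to 8200 and 6183 to 6493. In LT-HSC, endothelial markers summed to 89.85 to 116.9 TPM in WT and 58.15 to 70.09 in KO mice. B cell markers summed to 54.45 to 90.16 and 40.15 to 52.37. Megakaryocyte markers were higher in KO, at 282.8 to 357.1 and 455.3 to 488.3. Stromal sums overlapped, at 12.22 to 26.61 and 8.121 to 12.97. So did those of mast cell, basophil and eosinophil markers, at 250.6 to 453.3 and 395.6 to 3446. Granulocyte and monocyte sums and T and NK cell sums also overlapped. The part of these levels in the LT-HSC results was not tested. One LT-HSC library stood apart, that of WT mouse S245, with 27191 genes at 10 or more counts against 18504 to 22407 in the other LT-HSC libraries, and LT-HSC results are given with and without it.

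The sequences that bear on the Meg3 results are the windows around its starts, taken from RefSeq on build GRCm38.p6, each running from 250 bases before the start to 50 after. The first Meg3 start, base 109540996, has the window chr12:109540746-109541045 on the plus strand. The start of the long transcript Meg3-209, base 109545398, has the window chr12:109545148-109545447. Capitals mark matches, on either strand, to 6 searched motifs (the TATA box TATAAA, the CREB and ATF motif TGACGTCA, the AP-1 motif TGANTCA, the GATA factor motif GATAA, the RUNX core TGTGGT and the ZFP57 core TGCCGC).
Meg3, first start: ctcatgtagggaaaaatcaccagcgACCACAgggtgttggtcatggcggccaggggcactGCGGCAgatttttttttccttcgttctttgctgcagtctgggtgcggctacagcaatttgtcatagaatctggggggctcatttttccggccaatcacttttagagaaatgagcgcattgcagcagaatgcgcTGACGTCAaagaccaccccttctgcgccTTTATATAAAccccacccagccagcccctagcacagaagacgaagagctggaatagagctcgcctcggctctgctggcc
Meg3, start of Meg3-209: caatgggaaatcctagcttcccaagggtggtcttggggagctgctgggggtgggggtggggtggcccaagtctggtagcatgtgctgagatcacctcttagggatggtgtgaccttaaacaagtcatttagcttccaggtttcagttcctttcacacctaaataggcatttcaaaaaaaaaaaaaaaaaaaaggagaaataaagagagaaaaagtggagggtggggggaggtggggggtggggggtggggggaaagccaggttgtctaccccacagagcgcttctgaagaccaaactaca
The first window held TATAAA 25 bases before the start, read on the plus strand and overlapping a match on the other strand, as well as TGACGTCA, 57 bases before the start. Of the 32851 RefSeq windows of the same length, 13.6% held TATAAA and 1.79% held TGACGTCA. It also held TGTGGT, which 16.8% of windows held, and TGCCGC, which 11.6% held. The second window matched none of the 6 motifs. The first window had 13 CG pairs and the second had 1. These matches describe letters and say nothing about binding.

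Mature microRNAs from the same chain of transcripts are shown because their hosts are members, although microRNAs themselves were not measured. RefSeq places 3 mature microRNAs inside Meg3 on its strand, 6 inside Rian and 26 inside Mirg, the last with 25 different seeds. Capitals mark the seed, bases 2 to 8.
mmu-miR-770-5p: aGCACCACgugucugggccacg
mmu-miR-370-3p: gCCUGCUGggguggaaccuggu
mmu-miR-341-3p: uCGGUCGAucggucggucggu
mmu-miR-409-3p: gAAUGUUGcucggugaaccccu
mmu-miR-410-3p: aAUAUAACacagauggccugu
The first lies in Meg3, the next pair in Rian and the last pair in Mirg, and no seed is shared among these 5.

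Meg3 (ENSMUSG00000021268; GRCm38 chr12:109541001-109571726, plus strand) was close to absent from WT precursors and clearly present in KO CMP. In WT CMP it had 12, 11 and 10 estimated counts in mice 300, 305 and 309, or 0.05, 0.14 and 0.19 TPM. KO CMP had 253, 596 and 295 counts in mice 301, 304 and 308, or 4.49, 9.37 and 5.07 TPM. The groups did not overlap, and mouse 304 was the highest in both Meg3 and total counts among KO CMP. On the scale of normalised counts the difference was 5.03 ± 0.32 (log2, SE), about 32.7-fold, which is the value that chose the gene and carries no test. Without mouse 304 it was 4.70. In bulk libraries, more cells with the transcript and more transcript per cell cannot be told apart.

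In GMP the same gene had 12, 27 and 18 counts in WT mice and 16, 31 and 18 in KO mice, and the groups overlapped. The log2 difference was 0.27 ± 0.45 on the count scale, again a description. It depended on the scale, since the mean level was 0.258 ± 0.281 TPM in KO GMP and 0.0348 ± 0.0169 in WT GMP (SD, n = 3 each), and the count-scale difference corrected for transcript length was 2.81 ± 0.87. Mouse 304 supplied the highest KO value, 0.58 TPM, and without it the uncorrected difference was -0.11. In MEP, WT mice had 9, 7 and 17 counts and KO mice 16, 41 and 17. The groups overlapped there too, and the difference of 0.95 ± 0.55 did not pass (edgeR quasi-likelihood test, Benjamini-Hochberg adjusted p = 0.271), with Meg3 over the count filter in 3 KO libraries and 1 WT library.

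In LT-HSC the order was turned around. WT LT-HSC had 392 and 312 Meg3 counts (5.38 and 4.93 TPM), and KO LT-HSC had 42 and 35 (0.34 and 0.05 TPM). Both KO libraries lay below both WT libraries, as did 19.4% of genes tested in that population. The log2 difference of Meg3 was -3.37 ± 0.86 and did not pass in edgeR (adjusted p = 0.495, unadjusted p = 0.00223). It passed in DESeq2 (adjusted p = 0.000987), and in edgeR with the mice paired (adjusted p = 0.0862). It also passed in edgeR without WT mouse S245 (-3.16 ± 0.97, adjusted p = 0.0680) or without WT mouse S269 (adjusted p = 0.0145), fits that leave 1 WT library and take its spread from the KO pair. Whether the opposite movements in LT-HSC and CMP differ was not tested, because the kits differed.

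**Figure D1:**
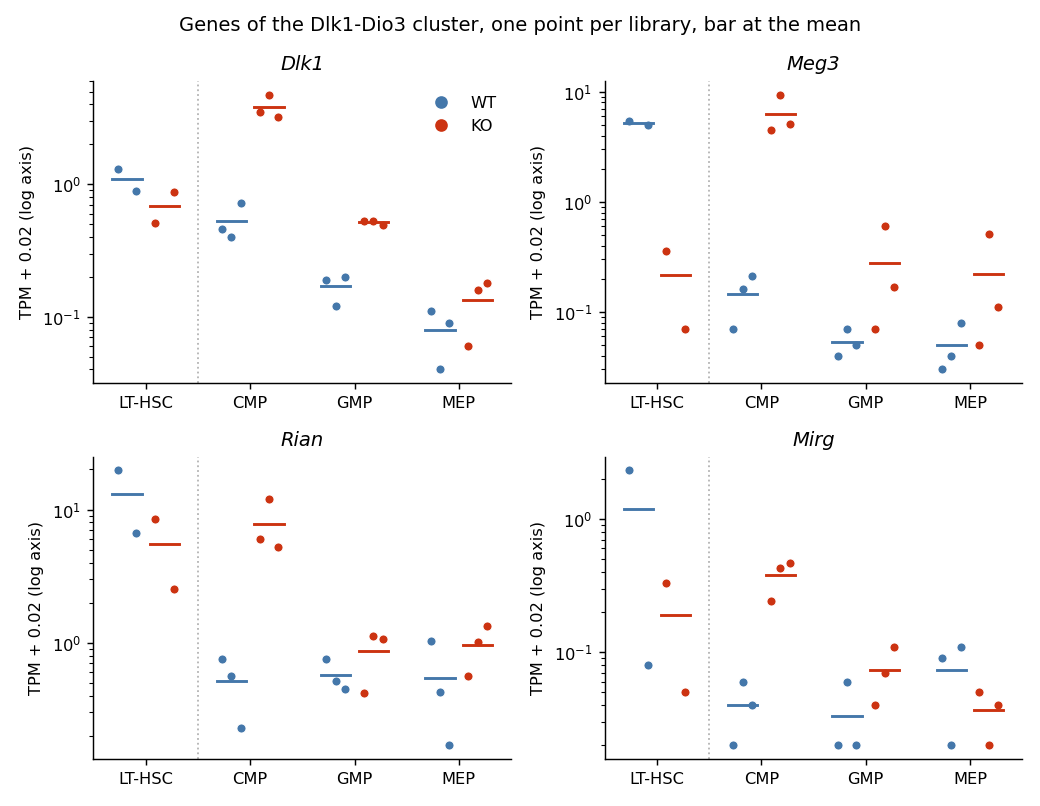
Levels of Dlk1, Meg3, Rian and Mirg as TPM plus 0.02 on a log axis, 1 point per library and a bar at the mean, WT in blue and KO in red; the dotted line separates the LT-HSC libraries, made with another kit. In CMP all 3 KO points lie above all 3 WT points in each panel, and in LT-HSC the KO points of Meg3 (0.34 and 0.05 TPM) lie below the WT points (5.38 and 4.93).

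The transcripts counted for Meg3 differed between these samples. Grouping its 11 annotated transcripts by start, a choice made after their values were seen, gave 3 spliced transcripts from the first start shown above, the 14548-base transcript Meg3-209, and 7 others. In KO CMP the transcripts of the first start had 146, 340 and 153 counts, which was 51.8% to 57.7% of the counts of the gene. WT CMP had 2, 0 and 0 counts from that start. WT LT-HSC also had counts from that start, 216 and 279 of them, or 54.9% and 89.4% of the gene, while KO LT-HSC had 8 and 0. In WT GMP every Meg3 count (12, 27 and 18) was assigned to Meg3-209, and none to the first start. KO GMP had 1, 5 and 3 counts from the first start, and KO MEP had 0, 17 and 2, the 17 again in mouse 304. The low Meg3 counts of precursors other than KO CMP were mostly counts of one long transcript. Kallisto divides reads between overlapping transcripts by estimation, so these shares carry an error that the files do not give.

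**Figure D2:**
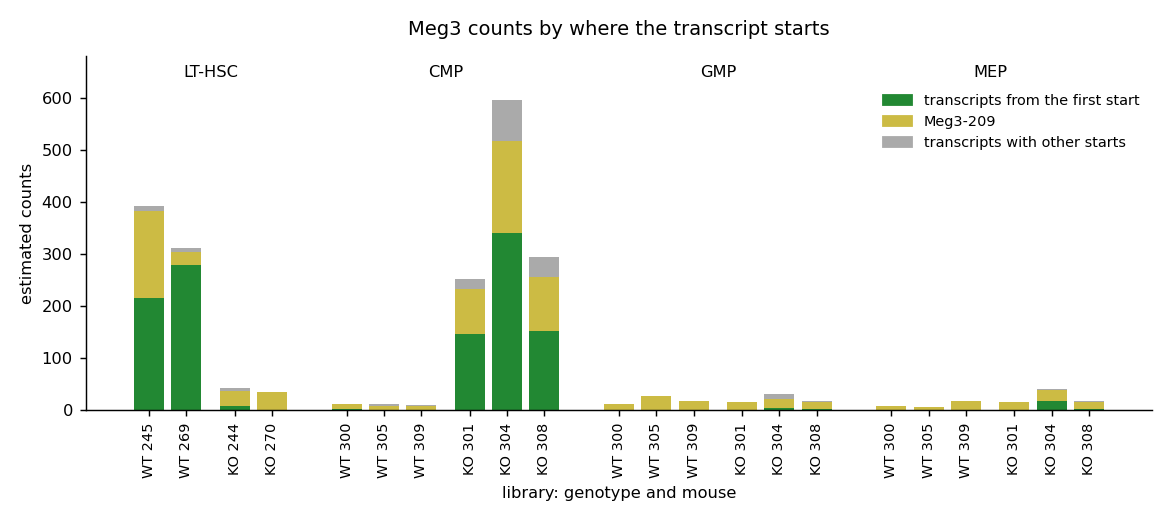
Estimated Meg3 counts in each of the 22 libraries, stacked by transcript group: transcripts from the first start (green), Meg3-209 (yellow) and transcripts with other starts (grey). The green part reaches 146 to 340 counts in KO CMP and 216 and 279 in WT LT-HSC, and at most 17 in any other library.

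Rian (ENSMUSG00000097451; chr12:109603940-109661716), the next transcript downstream, followed Meg3 in CMP. WT CMP had 26, 14 and 16 counts, and KO CMP had 212, 609 and 258. The groups did not overlap, and the rise of 4.18 ± 0.39 on the log2 scale, 18.2-fold, passed the test (edgeR, adjusted p = 0.000225). In GMP the values were 15, 23 and 15 in WT and 15, 39 and 32 in KO mice, a difference of 0.79 ± 0.44 that did not pass (adjusted p = 0.231). In MEP they were 23, 27 and 16 in WT and 35, 29 and 34 in KO mice, with a difference of 0.37 ± 0.31 (adjusted p = 0.450). Both of these effects were smaller than that in CMP by a test of the difference itself, by -3.34 ± 0.53 in GMP (adjusted p = 0.000707) and by -3.68 ± 0.51 in MEP (adjusted p = 0.000509). WT LT-HSC had 388 and 145 counts and KO LT-HSC 166 and 36. The normalised counts of KO mice lay below those of WT mice while their TPM overlapped (8.45 and 2.51 against 19.6 and 6.59), and the difference of -1.70 ± 0.96 did not pass (adjusted p = 0.876, and -0.77 ± 1.04 without WT mouse S245).

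Mirg (ENSMUSG00000097391; chr12:109729764-109749460), at the far end of the chain, was near the limit of detection. KO CMP had 5, 16 and 10 counts and WT CMP 0, 2 and 1, so that the groups did not overlap, as for 16.0% of tested genes with KO above WT. Its counts were too low for the test in any precursor. In GMP and MEP no library had more than 4 counts. In LT-HSC, WT mouse S245 had 66 counts and the other WT library 4, against 13 and 2 in KO mice, and without mouse S245 the log2 difference turned from -2.52 ± 2.07 to 0.63 ± 4.13.

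Dlk1 (ENSMUSG00000040856; chr12:109452823-109463336), a transmembrane protein with EGF-like repeats related to Notch ligands, is expressed from the other parental copy than Meg3. It too was higher in KO CMP, at 148, 246 and 136 counts against 21, 35 and 24 in WT CMP. Its rise of 2.67 ± 0.28 on the log2 scale, 6.36-fold, passed (edgeR, adjusted p = 0.000389). In GMP the counts were 11, 6 and 7 in WT and 17, 25 and 24 in KO mice, without overlap, as for 22.6% of tested genes with KO above WT, and the rise of 1.56 ± 0.39 passed as well (adjusted p = 0.0159). Dlk1 entered this test only through the KO libraries, since all 3 WT libraries lay under the filter on low counts, and with no filter it passed too (1.57 ± 0.48, adjusted p = 0.0308). The GMP and CMP effects were not shown to differ (-1.12 ± 0.59, adjusted p = 0.250). MEP had 2 to 11 counts in either genotype, too few for a test within that population; in the fit of all 18 precursor libraries the MEP effect was smaller than the CMP effect by -2.65 ± 0.68 (adjusted p = 0.0251), a call lost without any 1 of mice 300, 304 and 309 (adjusted p of 0.134, 0.101 and 0.149). LT-HSC had 109 and 54 counts in WT and 41 and 59 in KO mice, which overlapped (-0.84 ± 1.23, adjusted p = 0.896, and -0.21 ± 1.39 without WT mouse S245).

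The 2 remaining protein-coding genes of the cluster gave nearly no signal in precursors. Rtl1, a retrotransposon-derived gene, had at most 9 counts in every precursor library and 82 and 2 in WT and 10 and 4 in KO LT-HSC, the 82 in WT mouse S245, and Dio3, a deiodinase that inactivates thyroid hormone, had 0 in all 22. Of the other genes from 1 Mb before Dlk1 to 1 Mb after Dio3, 27 were tested in CMP and 4 passed, beside 23.4% of all genes, with log2 differences from -1.11 to 0.74 over all 27. These were Slc25a29 (-1.11 ± 0.26, adjusted p = 0.0184), Hsp90aa1 (0.33 ± 0.09), Tecpr2 (-0.23 ± 0.07) and Ankrd9 (0.49 ± 0.16). The non-coding genes Gm37899 and B830012L14Rik, which lie between Rian and Mirg, had differences of 0.33 ± 0.58 and 0.10 ± 0.35 in CMP and did not pass. In GMP 5 of 23 flanking genes passed, beside 33.9% of all genes, in MEP 7 of 22, beside 29.4%, and in LT-HSC 0 of 28 in edgeR, beside 0.0792%.

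Among the 13765 genes with a mean of at least 1 TPM, Rian was the gene most like Meg3 across the 18 precursor libraries, with a Pearson r of 0.98 of log2(CPM + 1). Next came Chga (0.95; chromogranin A, a protein of secretory granules, also on chromosome 12), AA467197 (0.95), Kif9 (0.92), a kinesin, and Ctr9 (0.92), a subunit of the PAF1 transcription complex. All 4 were highest in KO CMP, as in the case of Chga, at 11.9 ± 2.47 TPM there and 0.289 ± 0.163 in WT CMP. By ranks Rian fell to place 45 (Spearman rho 0.60) and none of these 5 genes was among the 5 most alike, and over the 15 precursor libraries without KO CMP the Pearson r of Rian with Meg3 was 0.44, so the likeness rests on the 3 KO CMP libraries. The Meg3 values that chose the set enter this ranking. Rian, Chga and AA467197 had a group mean of at least 1 TPM in KO CMP only. Dlk1, at 3.79 ± 0.806 TPM in KO CMP and 0.510 ± 0.170 in WT CMP, lay under the limit on mean TPM and was not ranked. These likenesses are descriptions over libraries that share mice and populations.

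Markers of other cell types moved in the same samples. The summed TPM of 10 stem cell markers was 99.1 to 128 in WT CMP and 157 to 168 in KO CMP. In LT-HSC it was 1380 to 1800 in WT and 1171 to 1184 in KO mice. Of these 10 genes, 3 were higher and 2 lower in KO CMP by the test. Mecom stood at 12.5 to 13.1 TPM in KO CMP and 3.38 to 5.64 in WT CMP, Hlf at 27.7 ± 2.74 and 24.7 ± 3.91 (SD, n = 3 each), and Fgd5 at 0.0227 to 0.0708 and 0.706 to 1.22. Erythroid markers summed to 2031 to 2373 TPM in KO CMP and 1241 to 1372 in WT CMP, megakaryocyte markers to 612 to 626 and 790 to 1139, and granulocyte and monocyte markers to 1855 to 2830 and 4204 to 5094. The part of these shifts in the Meg3, Rian and Dlk1 values was not tested. Of cells that a sort could carry over, 10 stromal genes summed to 25.2 to 35.3 TPM in KO CMP and 18.5 to 29.6 in WT CMP, with 7 of the 10 under 0.5 TPM in every library of either group. The 8 endothelial markers summed to 75.8 to 84.5 TPM in KO CMP and 76.5 to 87.4 in WT CMP (4 and 3 of 8 under 0.5 TPM in every library), with Cdh5 at most 0.0507 in KO CMP. The 7 T and NK cell markers summed to 129.5 to 148.5 and 167.9 to 242.7 (2 of 7 under 0.5 TPM in every library of each group). The 8 B cell markers summed to 20.5 to 24.2 and 29.6 to 31.8 TPM, and the 8 mast cell, basophil and eosinophil markers to 286.9 to 336.7 and 399.5 to 640.1.

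Across the members, 6 of 10 could be tested between KO and WT CMP apart from Meg3, and 3 passed, all higher in KO cells: Rian, Dlk1 and Igf2r. At the same threshold (FDR under 0.1) 23.4% of all 17214 genes passed, 10.6% of all in that direction and 12.8% in the other. In GMP 2 of 6 tested members passed, Dlk1 higher (over the filter in KO libraries only) and Grb10 lower, beside 33.9% of all genes (17.5% higher and 16.3% lower). In MEP 1 of 5 passed, Grb10 lower, beside 29.4% (15.4% lower). In LT-HSC, where the median log2 difference over all tested genes was -0.16, 0 of 8 passed in edgeR, beside 0.0792% of all genes; at an unadjusted p under 0.05 there was 1, Meg3, and DESeq2 also called 1. Meg3 is left out of the counts in CMP and GMP.

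Igf2r (ENSMUSG00000023830; chr17:12682406-12769664, minus strand), the receptor that clears IGF2 and carries lysosomal enzymes, is expressed mainly from the maternal copy. It had 570, 639 and 359 counts in WT CMP and 998, 1296 and 805 in KO CMP. The rise of 0.97 ± 0.16, 1.96-fold, passed (edgeR, adjusted p = 0.00332), and the groups did not overlap. In GMP the counts were 215, 336 and 291 in WT and 333, 599 and 357 in KO mice, with a difference of 0.70 ± 0.29 just outside the threshold (adjusted p = 0.106). With the mice paired by the order of the study's columns it passed (adjusted p = 0.00729), as it did in DESeq2 (adjusted p = 0.0300). In MEP, which had the highest counts of the precursors (2312 to 2553 in WT and 2116 to 2676 in KO mice), the difference was -0.26 ± 0.10 (adjusted p = 0.106, and 0.0697 with the mice paired). The effect in MEP differed from that in CMP by -1.21 ± 0.27 (adjusted p = 0.0114), and the effect in GMP exceeded that in MEP by 0.95 ± 0.28 (adjusted p = 0.0278; 0.134 without mouse 304). LT-HSC had 933 and 1650 counts in WT and 759 and 977 in KO mice, overlapping once normalised (-0.71 ± 0.42, adjusted p = 0.876, and -1.04 ± 0.38 without WT mouse S245). Airn, the antisense RNA that overlaps Igf2r, had 113, 58 and 48 counts in WT CMP and 88, 91 and 62 in KO CMP.

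Grb10 (ENSMUSG00000020176; chr11:11930508-12038683, minus strand) encodes an adaptor that binds insulin and IGF receptors and restrains their signal. WT GMP had 2726, 2494 and 1650 counts and KO GMP 1154, 1324 and 845. These did not overlap, as for 19.9% of tested genes with KO below WT, and Grb10 fell by 0.94 ± 0.20 on the log2 scale (edgeR, adjusted p = 0.00692). In the same GMP libraries the summed TPM of the mast cell, basophil and eosinophil markers was 4695 to 9728 in WT and 1209 to 2158 in KO mice, that of granulocyte and monocyte markers 32550 to 38330 and 43000 to 48670, and that of T and NK cell markers 646 to 860.2 and 946.7 to 1107. For each genotype, 4 of the 7 T and NK cell genes were under 0.5 TPM in every GMP library, with Cd3e at most 0.0663. Stem cell markers in GMP summed to 21.71 to 24.52 in WT and 15.52 to 15.84 in KO mice. Megakaryocyte markers summed to 117.9 to 237.0 and 78.67 to 99.75, and endothelial markers to 63.21 to 71.16 and 44.33 to 47.73. Sums of erythroid, stromal and B cell markers overlapped in GMP. In MEP the stem cell markers summed to 71.3 to 76.9 in WT and 121 to 134 in KO mice, megakaryocyte markers to 30.8 to 53.1 and 82.5 to 104.8, and erythroid markers to 7288 to 8200 and 6183 to 6493. Their part in the GMP and MEP values of any member was not tested. Grb10 counts in MEP were 6745, 4725 and 4456 in WT and 4885, 5338 and 4706 in KO mice; normalised, KO values were below WT values, as for 19.3% of tested genes, and the fall of 0.26 ± 0.08 passed (adjusted p = 0.0443), but not in 1 fit of all 18 precursor libraries (adjusted p = 0.471), nor without WT mouse 300 (0.126) or KO mouse 301 (0.105). In CMP the direction was upward and did not pass, with 2689, 3649 and 1543 counts in WT and 2694, 4800 and 2481 in KO mice (0.32 ± 0.23, adjusted p = 0.415); with the mice paired it passed (0.33 ± 0.05, adjusted p = 0.00192). The effects differed between populations, with GMP below CMP by -1.26 ± 0.18 (adjusted p = 0.000326), GMP below MEP by -0.66 ± 0.18 (adjusted p = 0.0169) and MEP below CMP by -0.60 ± 0.17 (adjusted p = 0.0448). Without the mouse as a block the last 2 did not pass (adjusted p of 0.171 for GMP against MEP and 0.337 for MEP against CMP), and the difference between MEP and CMP was also lost without any 1 of mice 300, 301, 304 and 309 (adjusted p of 0.117 to 0.224). LT-HSC levels were 36.8 and 39.2 TPM in WT and 26.0 and 20.2 in KO mice, without overlap (-0.51 ± 0.30, adjusted p = 0.876, and -0.65 ± 0.26 without WT mouse S245). One transcript, Grb10-201, held 94.1% to 98.9% of the counts in every precursor library and 82.7% to 93.4% in LT-HSC.

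Plagl1 (ENSMUSG00000019817; chr10:13060504-13131694), a zinc finger protein that regulates other imprinted genes, had few counts. It had 13, 30 and 21 in WT CMP and 37, 47 and 15 in KO CMP (0.58 ± 0.48, adjusted p = 0.498), and 22, 39 and 32 in WT GMP and 30, 19 and 21 in KO GMP (-0.33 ± 0.37, adjusted p = 0.568). It was at 0 in all 3 WT MEP libraries and at 0, 5 and 2 in KO MEP. Neither difference passed. The effects in GMP and MEP differed in the fit across populations (-4.58 ± 1.69, adjusted p = 0.0804), a value that rests on the 7 KO MEP counts against 0 and was lost without any 1 of mice 300, 304, 305, 308 and 309 (adjusted p of 0.134 to 0.269).

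Gnas (ENSMUSG00000027523; chr2:174284320-174346744), the gene of the stimulatory G protein alpha subunit, was the most abundant member and was close to level. Its mean was 545 ± 4.85 TPM in WT CMP and 564 ± 21.0 in KO CMP (SD, n = 3 each), 496 ± 32.3 and 462 ± 50.6 in GMP, and 549 ± 34.5 and 546 ± 21.1 in MEP. The log2 differences were -0.06 ± 0.05, 0.05 ± 0.08 and -0.03 ± 0.07, with adjusted p of 0.583, 0.704 and 0.784. In LT-HSC the Gnas difference was 0.29 ± 0.40 (adjusted p = 0.890), and 0.02 ± 0.17 without WT mouse S245. Its effects did not differ between precursors by the test (adjusted p from 0.385 to 0.925). Transcripts from its downstream starts, which include those encoding the G protein subunit and some non-coding ones, held 98.7% or more of its counts in every library. Transcripts from the Gnasxl start, which encode a longer form expressed from the paternal copy, had 37, 59 and 25 counts in WT MEP and 114, 159 and 175 in KO MEP. This grouping was made after the values were seen and was not tested. Nespas, the antisense RNA of this locus, passed upward in all 3 precursors: its counts were 20, 22 and 24 in WT CMP and 63, 130 and 112 in KO CMP (2.13 ± 0.30, adjusted p = 0.00172), 13, 21 and 5 against 48, 66 and 71 in GMP (2.33 ± 0.45, adjusted p = 0.00462, and 0.000407 without a filter), and 47, 48 and 47 against 148, 153 and 187 in MEP (1.57 ± 0.20, adjusted p = 0.00119). Nespas entered the GMP test through its KO libraries, since 3 KO but only 2 WT libraries lay over the filter on low counts. The counting is not stated to use strand, so reads of Nespas and of Gnas exons that overlap it cannot be told apart.

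H19 and Peg3 were near 0. H19 (ENSMUSG00000000031; chr7:142575529-142578143), a maternally expressed non-coding RNA that hosts miR-675, had 0 counts in 16 of 22 libraries and at most 7 in any precursor, and was tested in none. Peg3 (ENSMUSG00000002265; chr7:6703892-6730431), a paternally expressed zinc finger gene, had at most 7 counts in the precursors and 47, 5, 14 and 6 in the LT-HSC libraries, where the 47 were in WT mouse S245. Its LT-HSC difference of -1.62 ± 1.98 turned to 0.78 ± 3.72 without that mouse. Plagl1 and H19 did not reach the count filter in LT-HSC.

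**Figure D3:**
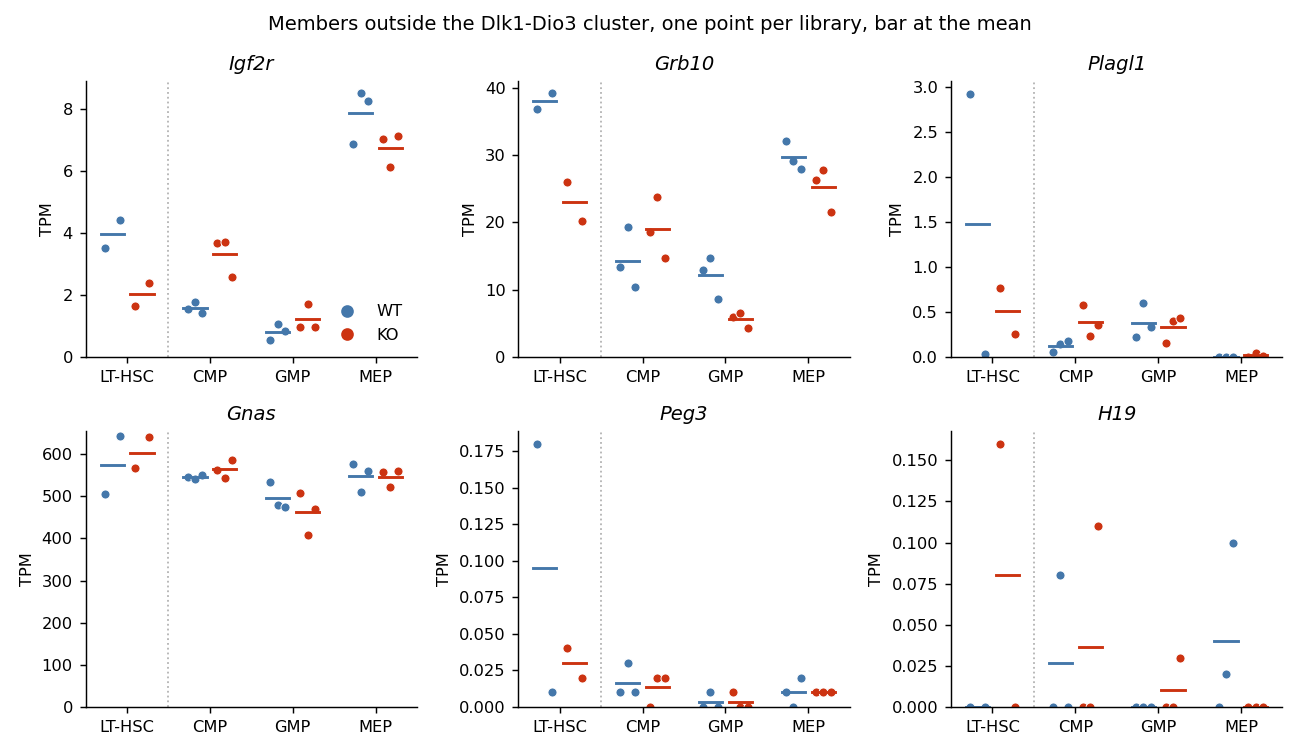
Levels in TPM of Igf2r, Grb10, Plagl1, Gnas, Peg3 and H19 in each library, 1 point per library with a bar at the mean, WT in blue and KO in red; the dotted line separates the LT-HSC libraries, made with another kit. Igf2r and Grb10 are highest among precursors in MEP, Grb10 is lower in KO than in WT GMP (5.62 against 12.1 TPM on average), and Peg3 and H19 stay under 0.2 TPM.

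WT populations were compared with the mouse as a block. Between MEP and CMP 5 of 6 tested members passed (72.4% of all genes did), between GMP and MEP 4 of 6 (72.6%), and between GMP and CMP 2 of 6 (45.3%); Mirg, H19 and Peg3 had too few counts, and Meg3 is described only. Igf2r followed the order MEP, CMP, GMP, at 7.89 ± 0.885, 1.59 ± 0.184 and 0.827 ± 0.250 TPM (SD, n = 3 each), with MEP above CMP by 2.61 ± 0.15 on the log2 scale (edgeR, adjusted p = 9.08e-07) and GMP below CMP by -0.77 ± 0.16 (adjusted p = 0.00416). Grb10 was higher in MEP (29.7 ± 2.11 TPM) than in CMP (14.4 ± 4.58), by 1.44 ± 0.13 (adjusted p = 1.45e-05), while CMP and GMP (12.1 ± 3.13) did not differ beyond their spread (-0.05 ± 0.13, adjusted p = 0.795). Dlk1 was highest in CMP, with GMP lower by -1.65 ± 0.48 (adjusted p = 0.0251; 0.105 without mouse 305 and 0.167 without mouse 309) and MEP lower by -1.90 ± 0.50 (adjusted p = 0.00878), and GMP and MEP did not differ beyond their spread (adjusted p = 0.709). Plagl1 was at 0 in MEP, at least 19.2-fold lower than in CMP and at least 27.2-fold lower than in GMP when MEP is set at 3 counts over the group. Gnas was higher in MEP than in CMP by 0.28 ± 0.05 (adjusted p = 0.00110), on the count scale. Rian passed in none of the 3 (adjusted p from 0.249 to 0.989). For Meg3 the scales disagreed in order, with GMP above CMP by 0.86 ± 0.47 in counts but 0.0348 TPM in GMP and 0.130 in CMP, the difference in transcripts described above.

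Beyond the members, a list of 61 other imprinted genes was counted. Of 40 tested in CMP, 7 passed higher and 9 lower in KO cells, of 37 in GMP 6 and 10, and of 37 in MEP 8 and 8, or 16 in each, beside 23.4%, 33.9% and 29.4% of all genes. Of the 16, 3 in CMP, 5 in GMP and 4 in MEP passed the filter on low counts only through the group in which they were higher; without a filter Cdkn1c (adjusted p = 0.115) and Ddc (adjusted p = 0.180) in GMP were not called and the others were. The median log2 difference over tested genes of the list stood at 0.01 for CMP, -0.06 for GMP and 0.01 for MEP, beside 0.00, -0.01 and 0.00 over all genes. In LT-HSC 0 of 47 passed in edgeR (3 at an unadjusted p under 0.05, and 1 passed in DESeq2). At least 1 precursor population gave a call for 26 genes, and Nap1l4 was called in opposite directions. In all 3 populations 5 were called, Ndn, Nespas and Peg10 higher and Impact and Inpp5f lower in KO cells. The shares of all genes with such calls are not given here, so these counts cannot be set against them.

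Snrpn, Ndn, Nespas and Peg10 were among those that rose. Ndn, encoding necdin, a growth suppressor of the Prader-Willi region, had 52, 50 and 34 counts in WT CMP and 291, 374 and 323 in KO CMP. It rose by 2.84 ± 0.16 there (edgeR, adjusted p = 3.74e-05), by 2.55 ± 0.59 in GMP (adjusted p = 0.0112) and by 2.09 ± 0.37 in MEP (adjusted p = 0.00550). In GMP and MEP only its KO libraries carried it over the filter, and without a filter the adjusted p was 0.00214 and 0.00321. Snrpn, of the same region, encodes a splicing protein and had 4, 9 and 5 counts in WT CMP and 39, 71 and 34 in KO CMP (2.92 ± 0.42, adjusted p = 0.00181). In MEP it was at 0 in 3 WT libraries and at 13, 21 and 12 in KO libraries, at least 13.4-fold higher with WT set at 3 counts over the group. Its filter was passed through KO libraries only, and with no filter it passed in both populations (adjusted p of 0.000203 for CMP and 0.000808 for MEP). Peg10, derived from a retrotransposon, rose by 1.75 ± 0.23 in MEP (adjusted p = 0.00129).

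Those with the largest falls included 3 genes of the cluster near H19 on chromosome 7. Phlda2, a growth-restraining gene of the placenta, fell from 57, 68 and 48 counts in WT CMP to 11, 8 and 9 in KO CMP (-2.62 ± 0.32, adjusted p = 0.000811), and from 368, 204 and 222 in WT MEP to 3, 10 and 11 in KO MEP (-5.19 ± 0.35, adjusted p = 5.91e-05). Ascl2, a transcription factor, fell by 2.22 ± 0.45 in CMP (adjusted p = 0.00990) and from 69, 47 and 66 counts to 2, 2 and 3 in GMP (-4.52 ± 0.39, adjusted p = 5.27e-05). Cdkn1c, the cell cycle inhibitor p57, fell by 1.52 ± 0.30 in CMP (adjusted p = 0.00817). In LT-HSC, Cdkn1c had 1911 and 1946 counts in WT and 979 and 1051 in KO mice, an example chosen after its values were seen. Both KO libraries lay below both WT libraries once normalised, as for 19.4% of tested genes in LT-HSC. No other imprinted gene of the list passed there in edgeR, Cdkn1c included. In GMP, Slc22a18 of the same cluster fell by 2.24 ± 0.33 (adjusted p = 0.00107) and Sfmbt2, a Polycomb-related gene, by 1.84 ± 0.23 (adjusted p = 0.000454). In MEP, Begain, which lies before Dlk1, fell by 1.75 ± 0.43 (adjusted p = 0.0214). Phlda2 in CMP and MEP, Ascl2 in CMP and GMP and Begain in MEP passed the filter through WT libraries only, with adjusted p without a filter of 4.24e-07 to 0.0101. Within 1 Mb of H19, these genes included, 4 of 28 tested neighbours rose and 5 fell in CMP (32.1%, beside 23.4% of all genes), 4 rose and 7 fell of 24 in GMP (45.8%, beside 33.9%), and 4 rose and 7 fell of 26 in MEP (42.3%, beside 29.4%), with Ap2a2 higher in each. Around Igf2r, Grb10, Plagl1, Peg3 and Gnas the share ran from 4.35% (Peg3 in CMP) to 63.6% (Plagl1 in GMP).

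**Figure D4:**
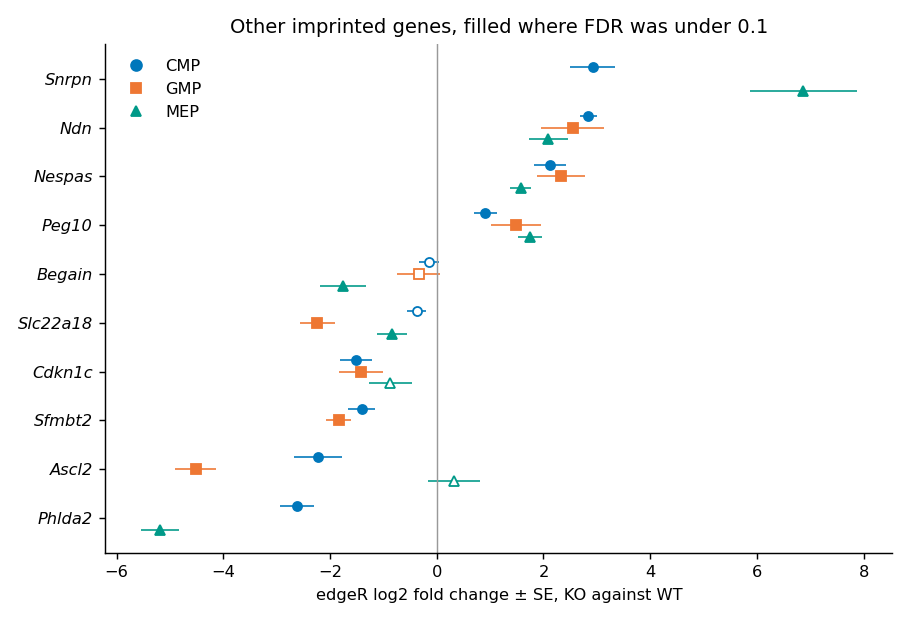
Log2 fold change of KO against WT cells (edgeR, ± SE) for the other imprinted genes with the largest changes, in CMP (circles), GMP (squares) and MEP (triangles), filled where FDR was under 0.1 and left out where counts were too low for the test. Snrpn, Ndn, Nespas and Peg10 lie to the right of 0, and the Snrpn value in MEP is a fit against WT libraries at 0 counts.

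Of 12 genes that maintain imprints, 1 of 11 tested passed in CMP, 2 of 11 in GMP and 6 of 10 in MEP, beside 23.4%, 33.9% and 29.4% of all genes. Zfp57, a zinc finger protein that guards imprinted methylation, had 23, 28 and 30 counts in WT GMP and 5, 3 and 9 in KO GMP, a fall of 2.14 ± 0.45 (edgeR, adjusted p = 0.00715; 0.00562 with no filter, which only its WT libraries passed). In CMP its counts were 222, 85 and 107 in WT and 98, 69 and 92 in KO mice, and it was not called there. Dnmt1, the maintenance methyltransferase, was higher in KO GMP by 0.26 ± 0.07 (adjusted p = 0.0230), and the calls in MEP lay between -0.12 and 0.39.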

How the data were processed

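RNA from sorted CMP, GMP, MEP and LT-HSC was sequenced as 100 bp paired-end reads. The authors quantified transcripts with kallisto on Ensembl mouse transcripts and deposited 1 table per library, which holds estimated counts per transcript, not normalised, and TPM, together with the length and the effective length of each transcript. The deposited TPM are normalised by the authors' tool to transcript length and library total. Here 114200 of the 115088 transcripts (99.2%) were paired by identifier with the GENCODE vM21 annotation of GRCm38, and estimated counts and TPM were summed over the transcripts of each gene, 47311 in all. Unpaired transcripts held 0.233% to 0.363% of counts and were left out.

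Summed counts were rounded and tested in edgeR 4.0.16 (R 4.3.3) with the quasi-likelihood F test, TMM normalisation, filterByExpr and Benjamini-Hochberg adjustment over all tested genes, at FDR 0.1. KO and WT cells were compared within each population. Differences of effect between populations (18 precursor libraries) and differences between WT populations used the mouse as a block, since each mouse gave all 3 precursors. The SE of a log2 difference was taken as its ratio to the root of F. Likeness to Meg3 used log2(CPM + 1). Groups were called separate where normalised counts (CPM) did not overlap. The design rested on 3 mice per genotype for precursors and 2 for LT-HSC. The median SE was 0.08 to 0.09 log2 for precursor genes at 1 TPM or more, 0.39 to 0.40 below that, and 0.39 and 1.89 in LT-HSC. Alternatives were RLE size factors, no filter, DESeq2 1.42.0, an offset for transcript length, KO and WT mice paired by the order of the study's columns, leaving out each library or mouse, and 1 fit of all precursors. The fits were tested on simulated data with known changes, most of which the precursor designs recovered and the LT-HSC design missed. These changes were placed only in genes above a limit on mean counts, with the same spread for all genes and no effect of the mouse. Changes in genes with fewer counts were not simulated. No 2 libraries held identical values. Deviations from the group mean correlated between paired mice at 0.25 to 0.41 in CMP, 0.36 to 0.42 in GMP, -0.02 to 0.40 in MEP and 0.32 in LT-HSC; the labels do not say which mice were littermates.

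The members and lists were chosen with earlier results of these data known. All members were described, with values where their counts allowed a fit. Of other imprinted and imprint-maintaining genes, at most 6 per comparison were named, those past FDR 0.1 with separate groups and the largest change, besides examples chosen after their values were seen (Cdkn1c in LT-HSC, Zfp57 in CMP, Dnmt1, Airn, Rtl1, Dio3 and the genes around Dlk1). Promoter windows and microRNAs are from RefSeq on GRCm38.p6; H19 had no window and 9 of the 10 members matched.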

Additional observations from a re-analysis of the deposited data

Results flagged for a closer look

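The effect of the knockout differed between populations, by a test of the difference itself, for 5 of the 6 members tested, at 2 for GMP against CMP, 4 for MEP against CMP and 3 for GMP against MEP. Against CMP, the effect in GMP was lower for Rian by -3.34 and for Grb10 by -1.26 on the log2 scale, and the effect in MEP was lower for Rian by -3.68, for Dlk1 by -2.65, for Igf2r by -1.21 and for Grb10 by -0.60. Against MEP, the effect in GMP was higher for Igf2r by 0.95 and lower for Grb10 by -0.66 and for Plagl1 by -4.58, the last on 7 counts in KO MEP and 0 in WT MEP. The Dlk1 value lost its call without any 1 of 3 mice, Igf2r for GMP against MEP without mouse 304, Plagl1 without any 1 of 5 mice, and both Grb10 values that involve MEP without the mouse as a block, that against CMP also without any 1 of 4 mice. The share of all genes passing these tests was 21.0% for GMP against CMP, 13.1% for MEP against CMP and 26.8% for GMP against MEP. The share passing at least 1 of the 3 is not given here, so 5 of 6 cannot be set against it.

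Meg3 and Rian had opposite orders of KO and WT libraries in LT-HSC and in CMP. In normalised counts every KO CMP library lay above every WT CMP library, as for 16.0% of tested genes. The Meg3 values in CMP are those that chose the set. Both KO LT-HSC libraries lay below both WT LT-HSC libraries, as for 19.4% of tested genes there, and the Rian TPM overlapped. The log2 differences in LT-HSC were -3.37 for Meg3 and -1.70 for Rian, and the latter was -0.77 without WT mouse S245. With all 4 libraries neither passed the threshold in edgeR (adjusted p of 0.495 and 0.876). The difference between these populations was not tested, since their libraries were made with different kits and came from different mice.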

How the results depend on the processing

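Of 657 single member values under an alternative, 591 kept their direction and their side of the threshold, 20 lost and 20 gained a call, 13 untested Meg3 values moved by more than the spread between replicates, and 13 turned in sign. Pairing KO with WT mice (the replicate block) gave 1 member past the threshold in LT-HSC and 2 in MEP, as did DESeq2 and the fit without a filter, against 0 and 1; with the block Grb10 in CMP and Igf2r in GMP were called, and without the mouse as a block the Grb10 differences between MEP and the other populations were not. DESeq2 called 1 other imprinted gene in LT-HSC against 0, and without a filter 4 rather than 7 differed in effect between MEP and CMP. Without 1 library, members called ranged from 0 to 2 in LT-HSC, 3 to 4 in CMP, 2 to 4 in GMP and 0 to 2 in MEP, and other imprinted genes from 0 to 7, 10 to 14, 11 to 14 and 11 to 17. Without 1 mouse, members differing in effect ranged from 2 to 2 for GMP against CMP, 2 to 5 for MEP against CMP and 1 to 3 for GMP against MEP, and other imprinted genes from 4 to 8, 3 to 6 and 7 to 11. Between WT populations they ranged from 1 to 2, 5 to 5 and 4 to 4 for members and 15 to 19, 25 to 27 and 19 to 25 for the others, in the same order.

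Values that turned in sign when 1 library or mouse was left out were small or of few counts. In LT-HSC, Mirg ran from -3.99 to 0.63 and Peg3 from -2.50 to 0.78, positive without WT mouse S245. Meg3 in GMP ran from -0.11 to 0.66. Gnas ran from -0.01 to 0.10 in GMP (-0.00 without KO mouse 301) and from -0.09 to 0.01 in MEP, its effect in MEP against CMP from -0.04 to 0.07, and its WT difference between GMP and CMP from -0.04 to 0.09. That WT difference ran from -0.42 to 0.39 for Rian (-0.01 without a filter) and from -0.14 to 0.09 for Grb10, and the WT difference of Meg3 between MEP and CMP from -0.10 to 0.58. The causes were not tested. Mirg, Plagl1, Peg3 and H19 had few counts, and differences in them may not be detectable at this depth.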
